A study of Mus musculus with 6 samples.

Results

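The Rab GTPases are the largest branch of the Ras superfamily of small GTP-binding proteins. Their genes were chosen by symbol: a table row was taken where the symbol was Rab followed by a digit, and rows starting with Rab3gap, Rab3il or Rab11fip were left out. The rule found 62 of the 24091 genes in the table. Of these, 59 encode Rab GTPases, Rab3ip encodes an exchange factor (Rabin8), and Rab10os and Rab26os are antisense transcripts. Counts were high enough to test 55 of the 62, which comprised 52 GTPase genes and the 3 other rows.

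RNA was measured in hematopoietic stem cells, the rare marrow cells from which all blood lineages are renewed. All 6 libraries came from wild-type cells inside a sort gate of lineage-, Sca-1+, c-Kit+, CD150+ and CD48-. The aged libraries (aged 1, aged 2 and aged 3) were pooled from 4 mice at an age of 20 months, and the young libraries (young 4, young 5 and young 6) from 30 mice at 2 months. The study's title concerns miR-126 and the vessels of ageing marrow, and the comparison asks which genes differ between aged and young stem cells. It is not stated whether the mouse numbers hold for a sample or for a group, and the p-values below speak only of how far such pools vary, part of which may be technical.

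A Rab protein cycles between a GDP-bound form held in the cytosol and a GTP-bound form on a membrane. Exchange factors switch it on, GTPase-activating proteins switch it off, and the active form recruits effectors such as motors and tethers that move, dock or fuse a vesicle. Each membrane of the cell carries its own set of Rabs, and cells with stored granules, such as platelets, mast cells and pigment cells, rely on a few Rabs of secretory granules and lysosome-related organelles. Genetic loss of Rab27a in mice gives pale coats and failed granule release by killer lymphocytes, and loss of Rab27b impairs platelet dense granules.

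Totals ran from 16452829 counts in young 4 to 21918658 in young 6, and an upper limit of 3 counts for a gene at 0 equalled 0.132 to 0.239 CPM, that is counts relative to library size, here scaled by TMM factors. The TMM factor was 0.765 in young 4 and 1.04 to 1.08 in the other 5 libraries. Of the genes behind the sort, Ly6a (Sca-1) was called higher and Cd48 lower in aged cells (an adjusted p under 0.05 by edgeR), while Kit averaged 976 CPM over the aged and 632 CPM over the young libraries. The 18 mitosis markers summed to 478 to 1397 CPM in aged and 3047 to 4638 CPM in young libraries, and 6 of them (Aurka, Bub1, Cdc20, Cenpe, Cenpf and Tpx2) were called lower in aged cells. Endothelial markers summed to 522 to 689 CPM in aged and 307 to 435 CPM in young libraries (Cldn5 higher, 1 of 8 tested), and neutrophil markers to 433 to 475 and 107 to 115 CPM (Prtn3 higher, 1 of 4 tested). Macrophage markers summed to 343 to 359 CPM in aged and 282 to 377 CPM in young libraries (Itgam higher, 1 of 9 tested). Of these 9, however, 7 had a log2 fold change (aged minus young) below 0 and 2 above, with a median of -0.44. Erythroid markers summed to 123 to 167 CPM in aged and 91.0 to 248 CPM in young libraries, with none of 7 called. B-lineage markers summed to 59.8 to 87.8 CPM in aged and 74.3 to 134 CPM in young libraries with Ms4a1 and Igll1 never above 3 counts. T and NK markers summed to 170 to 245 CPM in aged and 126 to 218 CPM in young libraries (Klrb1c higher, Cd4 and Nkg7 lower, of 4 tested). Of these markers, Cd3e, Cd3g and Ncr1 were never above 3 counts, and Cd8a was at 0 in all 6 libraries. The part of these shifts in the results on Rab genes was not tested, and in bulk RNA fewer cells of a type cannot be told apart from less RNA per cell.

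Aged stem cells had more RNA of Rab36, Rab40b, Rab44 and Rab34 and less of Rab27b. In a single fit of all genes by edgeR's quasi-likelihood test with Benjamini-Hochberg adjustment, 5 of the 55 tested Rab rows (9.09%) passed an adjusted p of 0.05, on which "called" rests throughout, against 772 of all 13413 tested genes (5.76%). The call was higher in aged cells for 4 of them (4.26% of all genes were) and lower for 1 (1.5% of all genes were). The other 50 rows were not called. At an unadjusted p under 0.05, 8 Rab rows were higher (13.9% of all genes) and 2 lower (11.1%), the others being Rab20, Rab19, Rab17 and Rab43 on the higher side and Rab5a on the lower. Aged and young CPM did not overlap for 20 rows, against 36.6% of all tested genes. Aged libraries were above young ones in 13 of these rows (19% of all genes) and below in 7 (17.6%). The median log2 fold change (aged minus young) was 0.06 over the 55 rows, of which 30 were above 0 and 25 below, and 0.04 over all tested genes, of which 52.7% were above 0.

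The summed level of the 59 GTPase genes was 4561, 4874 and 4961 CPM in aged 1 to aged 3 and 5439, 4691 and 4744 CPM in young 4 to young 6. The groups overlapped in this sum, with young 4 the highest of the 6. As a share of all counts, without TMM scaling, the sum was 0.491%, 0.508% and 0.532% in aged libraries and 0.416%, 0.489% and 0.494% in young libraries, with young 4 the lowest.

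**Figure D1:**
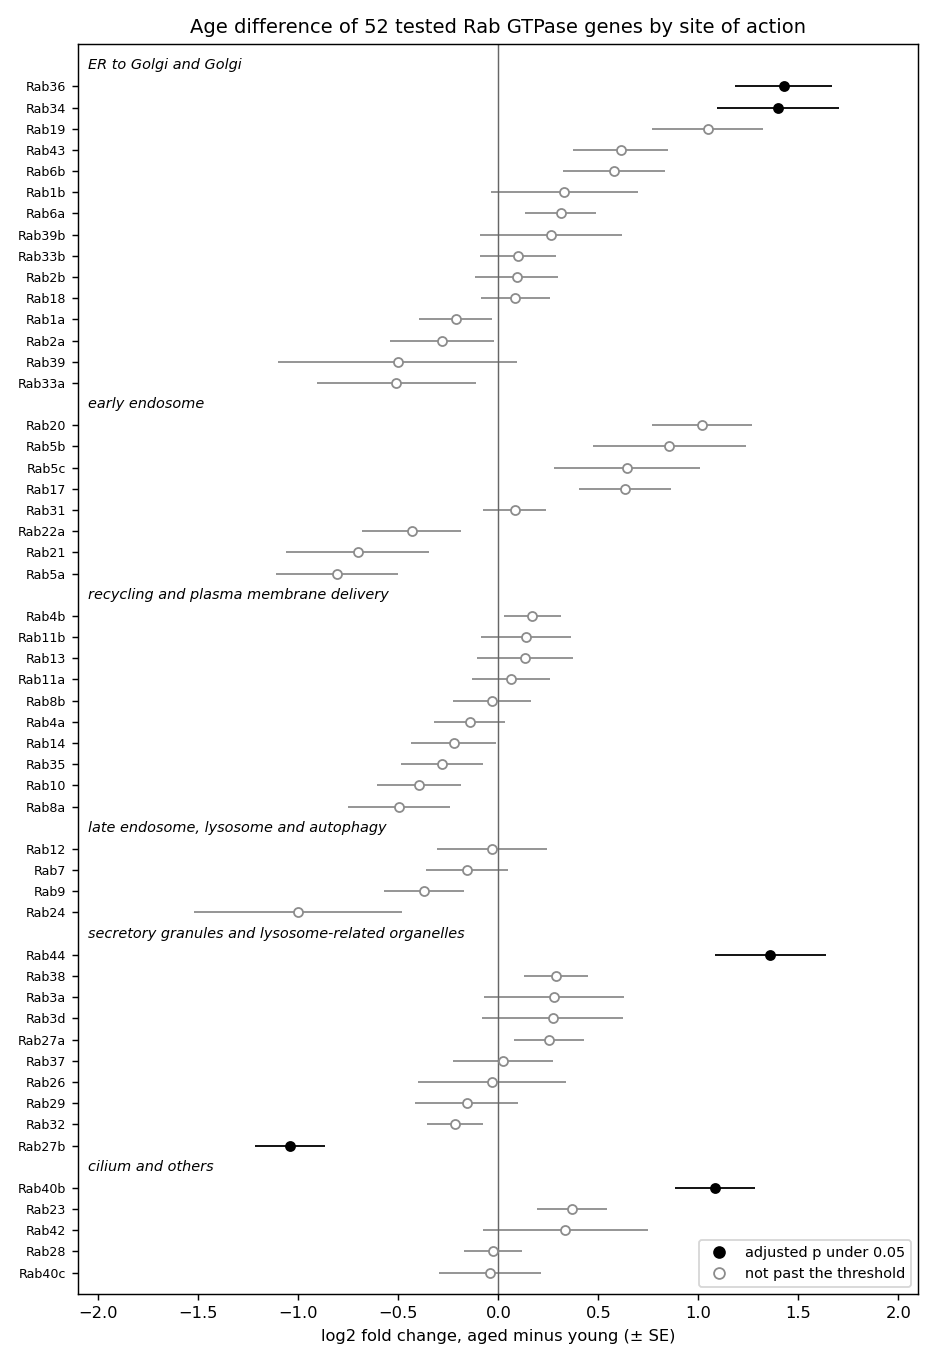
Log2 fold change, aged minus young, with its standard error (x axis) for the 52 tested Rab GTPase genes, grouped by site of action (y axis). Filled points are the 5 genes past an adjusted p of 0.05, of which Rab36, Rab34, Rab44 and Rab40b lie right of 0 and Rab27b lies left of it.

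Promoter sequences of Rab40b and Rab34, 2 of the genes higher in aged cells, are shown for the motif matches they hold. RefSeq's promoter table (build GRCm38.p6, 250 bases before to 50 after a gene's start) matched 51 of the 62 rows. Each sequence runs 5′ to 3′ on the gene's own strand, and capitals mark a motif match. The Rab40b promoter lies at chr11:121388202-121388501 on the minus strand and holds 4 matches to CCAAT, some of them on the other strand (printed as ATTGG). The promoter of the first of 2 Rab34 starts lies at chr11:78188177-78188476 on the plus strand and holds 1 match to AGATAA on the other strand, printed there as TTATCT, while the second start holds no match.
Rab40b: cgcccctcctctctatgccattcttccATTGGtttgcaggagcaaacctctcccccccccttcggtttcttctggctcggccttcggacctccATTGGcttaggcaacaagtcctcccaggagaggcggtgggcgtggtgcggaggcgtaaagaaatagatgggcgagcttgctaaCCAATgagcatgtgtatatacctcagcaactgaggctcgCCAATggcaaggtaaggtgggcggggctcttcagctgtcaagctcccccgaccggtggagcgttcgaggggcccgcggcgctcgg
Rab34: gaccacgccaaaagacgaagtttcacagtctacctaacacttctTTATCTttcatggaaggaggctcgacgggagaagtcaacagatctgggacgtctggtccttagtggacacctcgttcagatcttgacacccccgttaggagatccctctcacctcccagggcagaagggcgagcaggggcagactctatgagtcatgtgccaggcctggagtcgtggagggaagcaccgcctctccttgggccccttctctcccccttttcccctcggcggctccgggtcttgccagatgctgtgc
The search covered both strands and 4 motifs, namely the box bound by NF-Y, written CCAAT, an E-box bound by several helix-loop-helix proteins, written CACGTG, a sequence of the ETS family, written CCGGAAGT, and a sequence of the GATA family, written AGATAA. The E-box reads the same on both strands, and neither printed promoter holds matches to more than 1 of the 4 motifs, so none overlap there. A gene with several starts was counted once if the promoter of any start held a match, so such genes had more bases searched. The NF-Y box was found in 28 of the 51 Rab rows (54.9%) and in 41.1% of all 27025 genes with a promoter. The E-box was found in 7 (13.7%) and in 8.09% of all, the ETS sequence in 2 (3.92%) and in 4.31%, and the GATA sequence in 2 (3.92%) and in 12.7%. These matches are descriptions of letters and were not tested against the expression values.

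Levels per length differed widely among the Rab genes. TPM, computed from the counts and the gene lengths in the table and without TMM scaling, had its 6 highest means in Rab8a (387), Rab7 (335), Rab38 (311), Rab14 (306), Rab11a (294) and Rab1b (284). Fold changes come from the TMM-scaled fit and can differ in sign from a difference in TPM, above all through young 4. The lowest mean among tested GTPase genes was that of Rab39 (0.397 TPM). The 7 rows without enough counts to test were Rab15, Rab25, Rab30, Rab3b, Rab3c, Rab7b and Rab9b, which had 0 to 18 counts per library. Rab3b and Rab3c act in regulated release by neurons and endocrine cells, and Rab25 is a recycling Rab of epithelia.

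Rab8a, which directs delivery to the plasma membrane and to cilia, stood at 308, 387 and 377 TPM in aged 1 to aged 3 and at 453, 401 and 396 TPM in young 4 to young 6. The aged libraries lay below the young ones, and the log2 fold change was -0.50 ± 0.26 (SE) with an adjusted p of 0.263. Rab7, the Rab of late endosomes and lysosomes, stood at 300, 370 and 368 TPM in aged and 306, 325 and 341 TPM in young libraries. The groups overlapped, and the log2 fold change was -0.16 ± 0.20 with an adjusted p of 0.636.

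Rab38, which with Rab32 serves melanosomes and other lysosome-related organelles, stood at 358, 349 and 394 TPM in aged and 222, 272 and 270 TPM in young libraries. Its aged libraries all lay above the young ones, also in CPM (238, 245 and 263 against 228, 194 and 188), and the log2 fold change was 0.29 ± 0.16 with an adjusted p of 0.294. Rab14, which acts between the trans-Golgi network and endosomes, stood at 251, 338 and 336 TPM in aged and 280, 308 and 322 TPM in young libraries, with overlapping groups and an adjusted p of 0.517 (log2 fold change -0.22 ± 0.21).

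Rab11a, the Rab of recycling endosomes, stood at 289, 335 and 354 TPM in aged and 247, 265 and 273 TPM in young libraries. These TPM did not overlap, but the TMM-scaled CPM did, and the log2 fold change was 0.06 ± 0.20 with an adjusted p of 0.852. Rab1b, which acts in transport out of the endoplasmic reticulum, stood at 391, 257 and 340 TPM in aged and 83.8, 317 and 313 TPM in young libraries. Young 4 was far below every other library, and the log2 fold change was 0.33 ± 0.37 with an adjusted p of 0.582. Among these 6 genes, whose means lie close to each other, the libraries of neighbours in the order overlapped in every case.

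**Figure D2:**
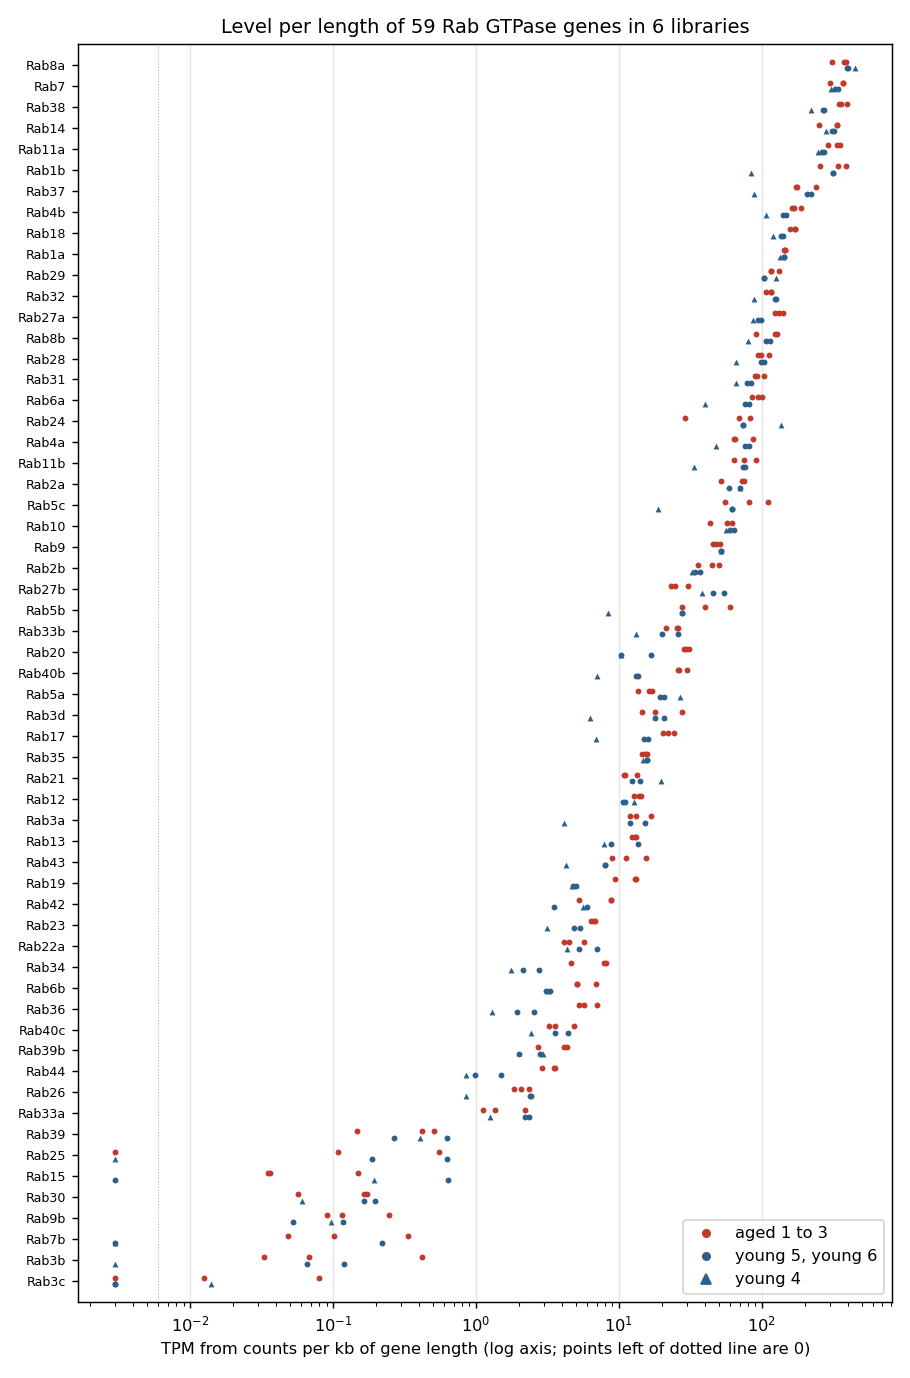
TPM per library on a log axis (x) for the 59 Rab GTPase genes ordered by their mean (y), with aged libraries in red, young libraries in blue and young 4 as a triangle. Rab8a, Rab7, Rab38, Rab14, Rab11a and Rab1b lead, and young 4 stands left of the other 5 libraries for Rab1b, Rab5b and Rab5c.

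Among the 12 Rab genes of secretory granules and lysosome-related organelles, 10 were tested, and Rab27b was called lower and Rab44 higher in aged cells. Over all genes, 1.5% were called lower and 4.26% higher. Rab27b and its paralog Rab27a dock granules at the plasma membrane, Rab27b mainly in platelets, mast cells and secretory glands. Rab27b (chromosome 18, minus strand) stood at 97.5, 82.4 and 73.4 CPM in aged 1 to aged 3 and at 187, 155 and 181 CPM in young 4 to young 6. Each aged library lay far below each young one, with aged libraries averaging 84.4 ± 12.2 CPM and young libraries 174 ± 17.0 CPM (SD, n = 3 each). Rab27b was 2.06-fold lower in aged cells (log2 fold change -1.04 ± 0.18, adjusted p = 0.0259).

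Rab27a stood at 205, 188 and 194 CPM in aged and at 196, 147 and 149 CPM in young libraries. The groups overlapped through young 4, and the log2 fold change was 0.25 ± 0.17 with an adjusted p of 0.388. On the per-length scale the balance between the paralogs differed by age: Rab27b made up 17.9%, 16.7% and 14.8% of the summed Rab27 TPM in aged libraries and 30.3%, 32.5% and 35.6% in young libraries. The ratio of Rab27b to Rab27a TPM was 0.218, 0.200 and 0.173 in aged and 0.435, 0.480 and 0.553 in young libraries. These ratios are formed within a library, so no scaling between libraries enters them, and the groups did not overlap.

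Rab44, a large Rab with a calcium-binding EF-hand that takes part in granule release of mouse mast cells, lies at chr17:29135056-29148976 (plus strand, mm10). It had 127, 127 and 109 counts in aged and 29, 56 and 41 counts in young libraries, or 6.09, 6.55 and 5.06 CPM against 2.31, 2.79 and 1.80 CPM. Its aged libraries all lay above the young ones, and it was 2.57-fold higher in aged cells (log2 fold change 1.36 ± 0.28, adjusted p = 0.0393). The other 8 tested members of the group, namely Rab26, Rab27a, Rab29, Rab32, Rab37, Rab38, Rab3a and Rab3d, ranged between -0.22 and 0.29 in log2 fold change, and none was called. With quality weights, limma-voom called Rab27a (log2 fold change 0.37, adjusted p = 0.0176) and Rab38 (0.40, adjusted p = 0.0121) higher in aged cells. DESeq2 and limma-voom without such weights called neither.

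Markers of the cells in which Rab27b and Rab44 are best known were measured beside them. The 15 megakaryocyte and platelet markers summed to 1413 to 2524 CPM in aged and 1177 to 2295 CPM in young libraries. Of the 14 that were tested, Ppbp, a platelet chemokine, was called and stood at 5.47, 6.30 and 6.22 CPM in aged and at 38.7, 21.6 and 20.6 CPM in young libraries. A list for platelet and mast cell granules had 11 genes, among them the receptor genes Kit, Fcer1a and Ms4a2. It summed to 1875 to 2226 CPM in aged and 1218 to 1583 CPM in young libraries, with Tpsb2 never above 3 counts. Of the 8 tested, Selp (P-selectin) was higher and F5 (coagulation factor V) lower in aged cells. The sum of this 11-gene list was thus higher in every aged library than in every young one, and that of the platelet markers overlapped. Kit, a gene of the sort gate with a higher mean in aged libraries, is part of the 11-gene sum. The sum without Kit was not computed. At an unadjusted p under 0.05, 3 of the 14 platelet markers were higher and 1 lower. The part of these genes in the Rab27b result was not tested.

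**Figure D3:**
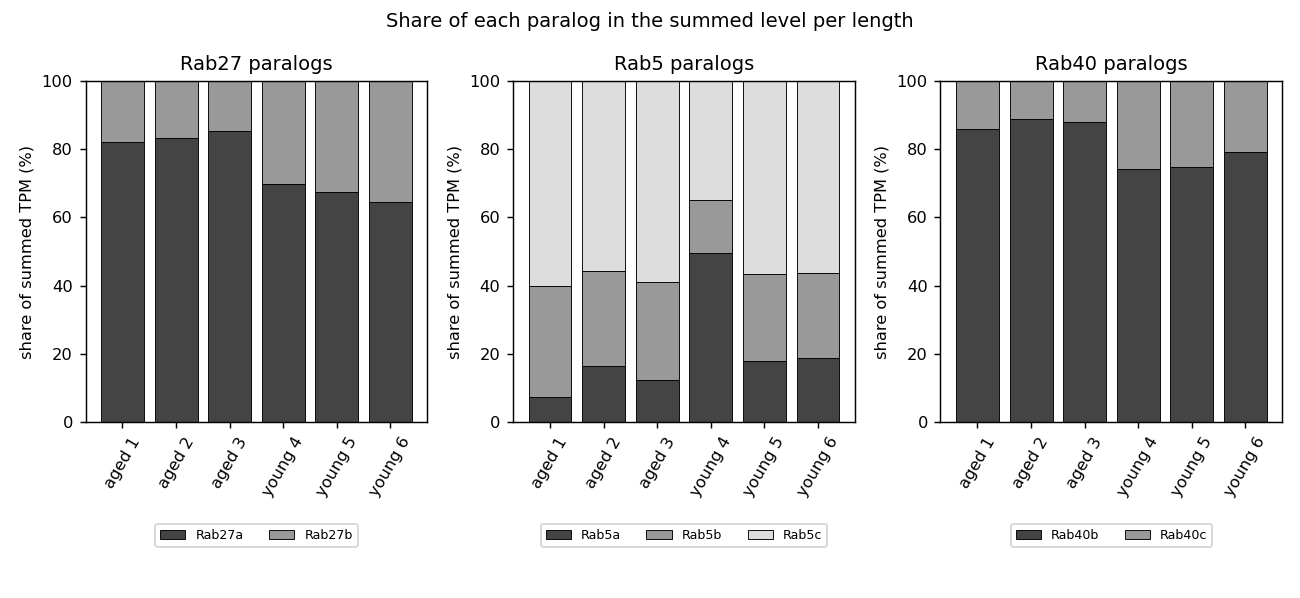
Share of each paralog in the summed TPM of its family (y, percent) in each of the 6 libraries (x), aged left and young right, for Rab27, Rab5 and Rab40. Rab27b takes 14.8% to 17.9% of Rab27 in aged and 30.3% to 35.6% in young libraries, and Rab5a takes 49.6% of Rab5 in young 4.

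Among the 16 Rab genes of the endoplasmic reticulum and Golgi in the table, 15 were tested. Rab36 and Rab34 were called higher in aged cells and none was called lower, beside 4.26% and 1.5% of all genes. Of the 15, 11 had a log2 fold change above 0 and 4 below, where 52.7% of all genes were above 0. The median of the 15 was 0.26. It was 0.04 without young 5, 0.13 without aged 2, 0.15 without aged 3 and 0.12 with GC content and length trends taken out. Rab36 is a Golgi Rab that binds effectors of the RILP family, and its gene lies at chr10:75037089-75054100 (plus strand, mm10). It stood at 9.69, 9.44 and 11.9 CPM in aged and at 3.42, 4.63 and 3.46 CPM in young libraries. The groups were well apart, with aged libraries averaging 10.4 ± 1.37 CPM and young libraries 3.84 ± 0.689 CPM (SD, n = 3 each), and Rab36 was 2.69-fold higher in aged cells (log2 fold change 1.43 ± 0.24, adjusted p = 0.027).

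Rab34, a close relative of Rab36 that acts in lysosome positioning and in building primary cilia, lies at chr11:78188427-78192193 (plus strand, mm10). Despite these roles, it was counted here with the endoplasmic reticulum and Golgi genes and not in the lysosome or cilium group. It had 128, 72 and 129 counts in aged and 26, 45 and 39 counts in young libraries, or 6.14, 3.72 and 5.99 CPM against 2.07, 2.24 and 1.71 CPM. Aged 2 was the lowest aged library but still above the young ones, and Rab34 was 2.63-fold higher in aged cells (log2 fold change 1.40 ± 0.30, adjusted p = 0.0454). Rab19, a Golgi-associated Rab, stood at 5.23, 7.74 and 7.24 CPM in aged and 4.05, 2.84 and 2.94 CPM in young libraries. These groups did not overlap either, and the log2 fold change was 1.05 ± 0.28 with an adjusted p of 0.0744 by edgeR. DESeq2 called Rab19 (adjusted p = 0.0101), as did edgeR without scaling beyond library size (0.044) or with GC content and length trends taken out (0.0298).

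The remaining 12 tested genes of the endoplasmic reticulum and Golgi had adjusted p-values of at least 0.171, that of Rab43. Rab43, a Golgi Rab, stood at 35.9, 22.1 and 26.2 CPM in aged and 15.4, 20.0 and 19.6 CPM in young libraries, without overlap, and at an unadjusted p of 0.0359. However, 74.5% of its 51-base stretches are shared with the gene Gm45140, so its count is uncertain. Rab6a and Rab6b, Rabs of transport within and out of the Golgi, also had every aged library above every young one, at log2 fold changes of 0.31 ± 0.18 and 0.58 ± 0.25 with adjusted p-values of 0.303 and 0.212. Of the 51-base stretches of Rab6a, 18.9% are shared with Gm13082 or Mrpl48, and Mrpl48 overlaps it on the other strand.

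**Figure D4:**
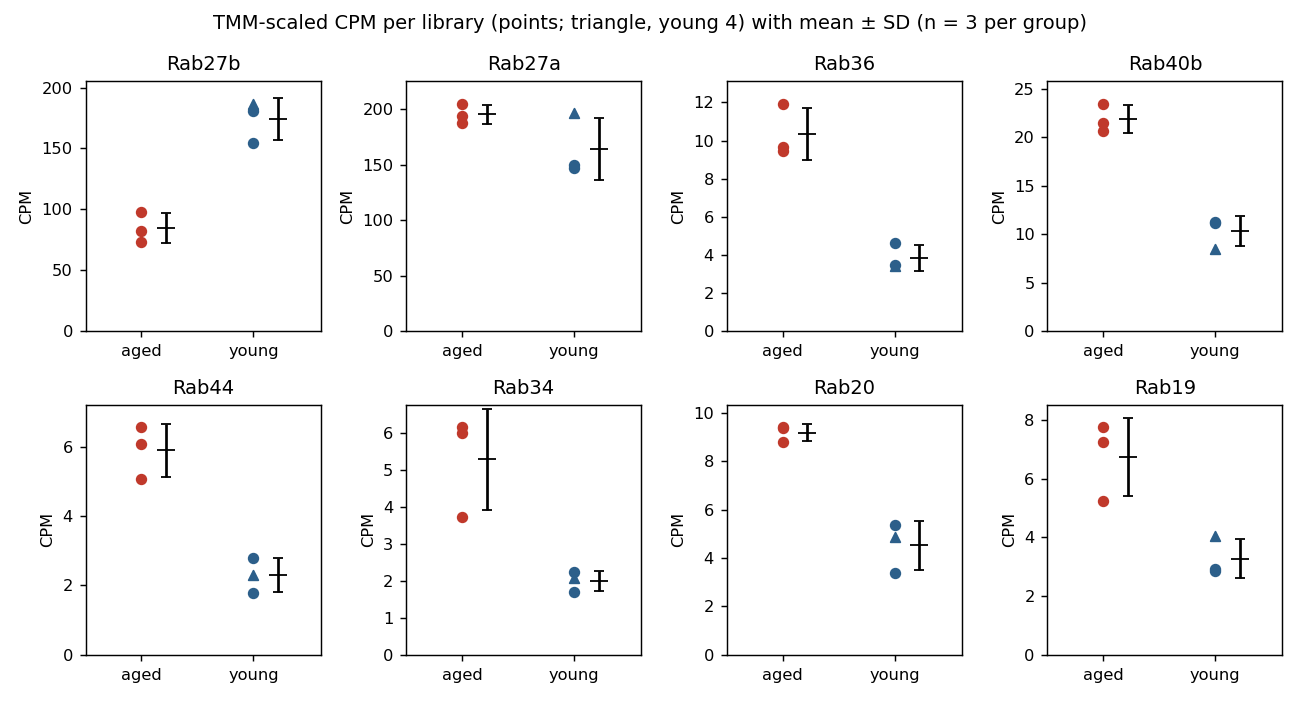
TMM-scaled CPM (y) in aged (left) and young (right) libraries for 8 Rab genes, with points for libraries, a triangle for young 4 and bars for mean ± SD (n = 3). Rab27b is lower in aged libraries, Rab27a overlaps, and Rab36, Rab40b, Rab44, Rab34, Rab20 and Rab19 have every aged library above every young one.

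Rab40b was the called gene among the 5 Rabs of cilia and other sites (20%, beside 5.76% of all genes). Rab40 proteins carry a SOCS box, through which they join a Cullin5 ubiquitin ligase, and Rab40b takes part in the secretion of matrix proteases in cultured cancer cells. Its gene lies at chr11:121356121-121388251 (minus strand, mm10). Rab40b stood at 23.4, 21.5 and 20.7 CPM in aged and at 8.51, 11.2 and 11.2 CPM in young libraries. The groups were far apart, with aged libraries averaging 21.9 ± 1.43 CPM and young libraries 10.3 ± 1.55 CPM (SD, n = 3 each), and the gene was 2.12-fold higher in aged cells (log2 fold change 1.08 ± 0.20, adjusted p = 0.0334).

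Its paralog Rab40c stood at 6.04, 4.28 and 4.50 CPM in aged and 4.69, 5.93 and 4.65 CPM in young libraries. The groups overlapped, and the log2 fold change was -0.04 ± 0.26 with an adjusted p of 0.925. Rab40c made up 14.0%, 11.2% and 12.1% of the summed Rab40 TPM in aged and 25.8%, 25.1% and 20.7% in young libraries. Rab23, which acts on cilia and Hedgehog signalling, had every aged library above every young one at a log2 fold change of 0.37 ± 0.17 and an adjusted p of 0.236. Rab28 and Rab42 overlapped between the ages and were not called.

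In the fit on which calls rest, none of the 8 early endosomal Rab genes was called. At an unadjusted p under 0.05, 2 were higher (13.9% of all genes) and 1 lower (11.1%). DESeq2 called Rab20, as did edgeR with upper-quartile scaling (adjusted p = 0.0474) or with GC content and length trends taken out (0.0451). The log2 fold changes of the 8 genes ran from -0.81 to 1.02 with a median of 0.36, which was 0.21 without aged 1 and 0.24 without young 4. Rab20, a Rab of endosomes and phagosomes, stood at 9.35, 9.39 and 8.77 CPM in aged and 4.85, 3.39 and 5.35 CPM in young libraries. All aged libraries were higher, and the log2 fold change was 1.02 ± 0.25 with an adjusted p of 0.0604. Its gene overlaps E230013L22Rik on the other strand, and since the library kit does not mark strand, their reads cannot be told apart where they overlap. Of the 51-base stretches of Rab20, 22.9% are shared with E230013L22Rik, which was itself called between the ages in the same fit. The part of E230013L22Rik in the Rab20 difference was not tested. Rab17, known from transcytosis in epithelia, stood at 18.1, 17.7 and 20.0 CPM in aged and 8.82, 14.1 and 13.0 CPM in young libraries. Its groups did not overlap, and the adjusted p was 0.151 (log2 fold change 0.63 ± 0.23).

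The Rab5 paralogs drive fusion of early endosomes and share effectors. Rab5a stood at 13.6, 17.0 and 17.1 CPM in aged and at 41.3, 20.8 and 21.6 CPM in young libraries. The aged libraries were all lower, young 4 was by far the highest, and the log2 fold change was -0.81 ± 0.31 with an adjusted p of 0.164. Rab5b stood at 111, 53.8 and 74.0 CPM in aged and at 23.8, 54.6 and 53.4 CPM in young libraries. Young 4 was here the lowest, the groups overlapped, and the log2 fold change was 0.85 ± 0.38 with an adjusted p of 0.218.

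Rab5c stood at 92.1, 48.3 and 68.3 CPM in aged and 24.3, 54.96 and 54.2 CPM in young libraries, again lowest in young 4 (log2 fold change 0.64 ± 0.36, adjusted p = 0.304). Rab5a made up 7.38%, 16.4% and 12.3% of the summed Rab5 TPM in aged libraries and 49.6%, 17.9% and 18.7% in young libraries, so that young 4 stood apart while young 5 and young 6 were near aged 2. The ratio of Rab5a to Rab5b TPM was 0.226, 0.584 and 0.427 in aged and 3.21, 0.704 and 0.745 in young libraries.

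Of the 12 recycling and plasma membrane Rabs, 10 were tested, and edgeR, DESeq2 and limma-voom called none of them. At an unadjusted p under 0.05 there were 0 as well. Their log2 fold changes kept between -0.50 and 0.17, with 4 above 0 and 6 below, where 52.7% of all genes were above 0. Rab10, which delivers the glucose transporter GLUT4 in fat cells, and Rab35, a fast recycling Rab, had every aged library below every young one, at -0.40 ± 0.21 and -0.28 ± 0.21 and adjusted p-values of 0.277 and 0.412. Rab4b, of early recycling, had every aged library above every young one, at 0.17 ± 0.14 and an adjusted p of 0.469. However, 57.8% of its 51-base stretches are shared with 126 other genes, so its count is uncertain.

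All 4 tested Rabs of late endosomes, lysosomes and autophagy (Rab7, Rab9, Rab12 and Rab24) had negative fitted log2 fold changes, with a median of -0.27. Over all genes, 52.7% were above 0. None of the 4 was called by edgeR, DESeq2 or limma-voom, and 0 had an unadjusted p under 0.05 by edgeR. Without scaling beyond library size only 2 of the 4 were negative, and without young 4 the median was -0.105 with 3 negative. Rab24, an unusual Rab linked to autophagy, stood at 22.8, 56.9 and 65.0 CPM in aged and 167, 62.2 and 61.1 CPM in young libraries, with overlap and an adjusted p of 0.266. Of its 51-base stretches, 49.4% are shared with Prelid1, so its count is uncertain. Rab9, which returns receptors to the Golgi, had every aged library below every young one, at -0.37 ± 0.20 and an adjusted p of 0.284.

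The 3 rows that are not GTPase genes were not called. Rab3ip stood at 23.0, 19.1 and 16.7 CPM in aged and 15.7, 21.1 and 21.5 CPM in young libraries, with overlapping groups and an adjusted p of 0.978. Rab10os and Rab26os had adjusted p-values of 0.563 and 0.382. Rab10os overlaps Rab10 on the other strand, where reads of the pair cannot be told apart.

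Most calls on Rab genes were lost in most runs that left a library out. The count of calls over all genes also fell in every such run except that without young 4. Whether a particular library or the smaller group lies behind a lost call was not tested. Rab27b remained called without aged 1 and without young 4, and its adjusted p over the 6 runs that each left a library out ran from 0.0231 to 0.117. Rab36, Rab40b and Rab44 remained called only without young 4 (adjusted p 0.0344 to 0.105, 0.0322 to 0.113 and 0.0485 to 0.127), and Rab34 in none of the 6 runs (0.055 to 0.167). The sign of all 5 differences held in every run, with folds of 1.93 to 2.24 lower for Rab27b and 2.49 to 3.00 higher for Rab36. By edgeR's test, no Rab row was called without aged 2, aged 3, young 5 or young 6. At an unadjusted p under 0.05, 8, 6, 7 and 6 Rab rows were higher in these runs, and 1, 1, 2 and 4 lower. Shares of all genes at that threshold are not given for these runs, so the counts describe the Rab rows alone. With both aged 2 and young 4 left out, Rab27b alone was called.

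Young 4 differed from young 5 and young 6 along GC content. Of the called Rab genes, 4 had a GC content of at least 55% and 1 lay under 45%. Over the 55 tested rows, Pearson's r between the mean GC content of a gene's GENCODE transcripts and the log2 ratio of young 4 to the mean of young 5 and young 6 was -0.34, and -0.435 over 13148 genes. These are descriptions across genes, which share libraries and are not independent. The r of GC content with the log2 fold change was 0.439 over the Rab rows and 0.203 over the 13148 genes. Of the 19 Rab rows with GC content of at least 55%, 12 were lower in young 4 than in the other young libraries, and the median log2 fold change of the 19 was 0.34. Rab36 (55.5%), Rab40b (59.4%), Rab44 (57.7%) and Rab34 (56.9%) belong to the 19. Of the 13 rows under 45%, to which Rab27b (40.8%) belongs, 2 were lower in young 4, and the median log2 fold change of the 13 was -0.21. The same counts within these limits of GC content were not made over all genes, so they describe the Rab rows alone. For the called genes, the log2 ratio of young 4 to the mean of young 5 and young 6 was -0.22 for Rab36, -0.38 for Rab40b, 0.01 for Rab44, 0.05 for Rab34 and 0.15 for Rab27b.

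With each library's trends by GC content and length taken out, a setting added after the data had been seen, 6 Rab rows were called: Rab27b, Rab36, Rab40b and Rab34 as before, with Rab19 and Rab20 in addition. Rab44 was not called there, at a log2 fold change of 0.93 and an adjusted p of 0.132. Under that setting 1320 of all genes were called, 54.2% of them higher in aged cells, where the fit without it called 772 with 74% higher.

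**Figure D5:**
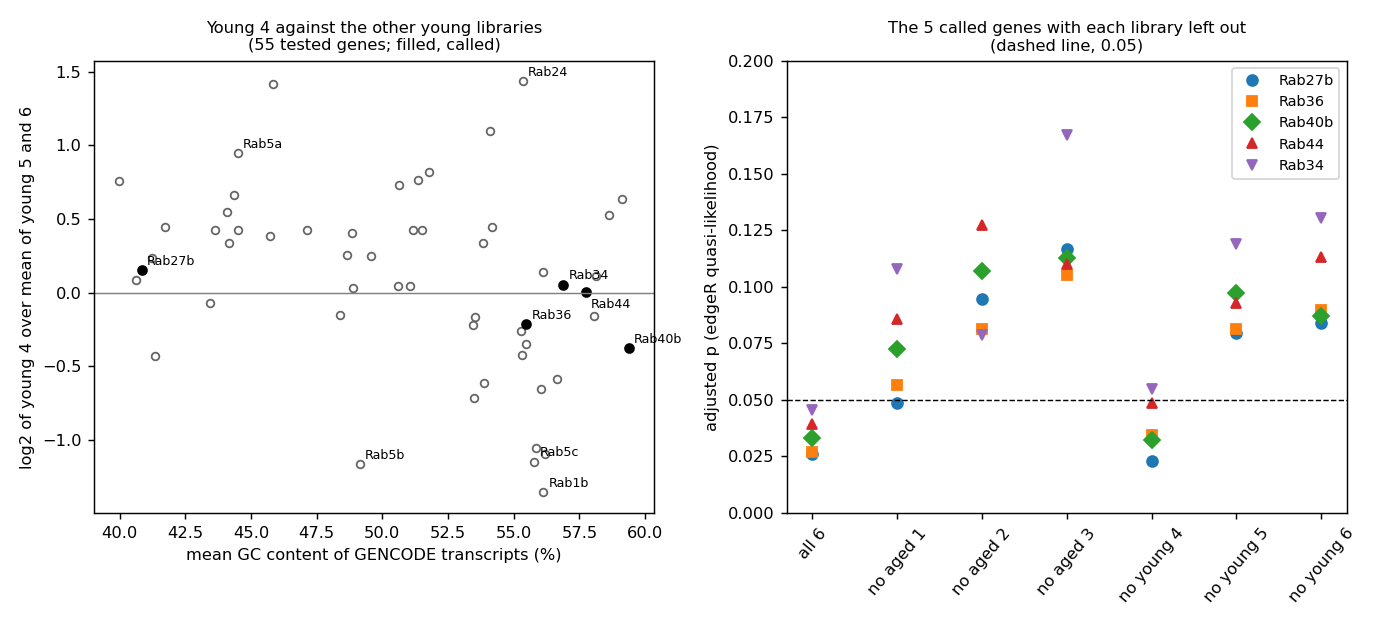
Left, log2 ratio of young 4 to the mean of young 5 and young 6 (y) against transcript GC content in percent (x) for the 55 tested Rab rows, with the 5 called genes filled. Right, adjusted p of those 5 genes (y) with all 6 libraries and with each left out (x), where Rab27b lies under the dashed line of 0.05 in 3 of the 7 columns, Rab36, Rab40b and Rab44 in 2 and Rab34 in 1.

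The proteins that load, switch and read the Rabs were described through 6 gene lists with 160 genes in the table. Of the 151 tested, 6 were called higher and 0 lower in aged cells (3.97%), where 5.76% of all tested genes were called, 4.26% higher and 1.5% lower. With an unadjusted p under 0.05, 32 of the 151 were higher and 4 lower, beside 13.9% and 11.1% of all genes. By DESeq2, 21 of the 151 were called, 19 higher and 2 lower, as were 2181 of all 13413 genes. Their median log2 fold change was 0.24. The called genes were the exchange factors Rin2, Sbf2 and Dennd2a, the GTPase-activating protein Tbc1d8 and the effectors Exoc6b and Myo5b.

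Of the 7 genes for attaching lipid to Rabs and drawing them from membranes, none was called by edgeR or DESeq2, 0 had an unadjusted p under 0.05, and the median log2 fold change was -0.12, which was -0.03 without young 4, -0.06 without young 5 and 0.05 without scaling beyond library size. Chml, an escort protein that presents Rabs for prenylation, stood at -0.49 ± 0.32 with an adjusted p of 0.363. With quality weights, limma-voom called Chml lower in aged cells (log2 fold change -0.70, adjusted p = 0.04).

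Of 35 exchange factors tested, 3 were called higher and 28 had a log2 fold change above 0, with a median of 0.46, while 4.26% of all genes were called higher and 52.7% were above 0. The median was 0.13 (22 of 35 above 0) with GC content and length trends taken out, 0.26 (23 of 35) without aged 1 and 0.29 (23 of 35) without young 4. Rin2, an exchange factor for Rab5, stood at 23.7, 17.3 and 24.2 CPM in aged and 8.35, 11.01 and 9.12 CPM in young libraries. The groups did not overlap, and Rin2 was 2.29-fold higher in aged cells (adjusted p = 0.0346). Sbf2 and Dennd2a, which carry the DENN domain of many Rab exchange factors, were 3.16-fold and 2.40-fold higher (adjusted p = 0.0376 and 0.0447). Of 14 tested subunits of TRAPP, an exchange complex of Rab1, none was called by edgeR, DESeq2 or limma-voom. At an unadjusted p under 0.05, 1 was lower, and the smallest p belonged to Trappc13 (log2 fold change -0.74 ± 0.31, adjusted p = 0.195) and Trappc2 (-0.62 ± 0.30, adjusted p = 0.25).

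Of 38 GTPase-activating proteins tested, Tbc1d8 was called (2.63%, beside 5.76% of all genes). Of the 38, 29 had a log2 fold change above 0, beside 52.7% of all genes. Their median was 0.22, and 0.10 without aged 1. Tbc1d8, which carries the TBC domain of Rab-inactivating proteins, stood at 54.1, 34.0 and 45.5 CPM in aged and 15.6, 19.6 and 21.1 CPM in young libraries. All aged libraries were higher, and the gene was 2.37-fold higher in aged cells (adjusted p = 0.0334). With GC content and length trends taken out, 19 of the 38 were above 0 and 19 below.

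Of 49 effectors tested, 2 were called (4.08%, beside 5.76% of all genes). Of the 49, 38 had a log2 fold change above 0, beside 52.7% of all genes, and the median was 0.43. The median was 0.26 with GC content and length trends taken out. An unadjusted p under 0.05 was reached by 18 higher genes and 1 lower gene, beside 13.9% and 11.1% of all genes. Exoc6b, a subunit of the exocyst that tethers vesicles to the plasma membrane, stood at 143, 180 and 199 CPM in aged and 31.9, 51.0 and 58.9 CPM in young libraries. The groups were far apart, and Exoc6b was 3.68-fold higher in aged cells (log2 fold change 1.88 ± 0.27, adjusted p = 0.0167). Myo5b, a myosin motor that binds Rab11, had 16, 44 and 49 counts in aged and 1, 6 and 2 counts in young libraries. It was called with an adjusted p of 0.039, and its fitted log2 fold change of 3.41 ± 0.69 rests on few young counts. That value was 4.28 without young 5 and 3.06 without young 6.

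Of the 8 subunits of the CORVET and HOPS tethers, which act with Rab5 and Rab7, 7 had a log2 fold change above 0 (52.7% of all genes). This was 5 of the 8 with GC content and length trends taken out, 5 without aged 1 and 4 by limma-voom with quality weights. None was called by edgeR, DESeq2 or limma-voom, and 0 had an unadjusted p under 0.05. Vps33a stood at 0.31 ± 0.16 (adjusted p = 0.268) and Vps11 at 0.63 ± 0.33 (adjusted p = 0.278). Among the 6 called regulators and effectors, Exoc6b kept its call in 3 of the 6 runs that each left a library out (without aged 1, young 4 or young 6), Sbf2 in 2 (without aged 1 or young 4), Rin2 and Tbc1d8 in 1 each (without young 4), Myo5b in 1 (without aged 1) and Dennd2a in none.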

How the data were processed

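RNA-seq gene counts of 3 aged and 3 young libraries of sorted mouse hematopoietic stem cells were used. Per the labels' protocols, libraries were made with the SMART-Seq v4 kit, which does not mark strand, and read as single reads of 51 cycles. The submitters' processing notes name build mm10 and Trimmomatic, edgeR, HTSeq 0.11.1 and STAR 2.6.0, with no roles. What the authors deposited are unscaled whole-number counts per gene, with coordinates and gene length. The annotation is not given in the sources used here.

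Groups came from the sample titles, and every count column was matched by name. Aged was compared with young by the quasi-likelihood test of edgeR 4.0.16 under R 4.3.3 (filterByExpr, TMM, estimateDisp, glmQLFit, glmQLFTest) over 13413 genes, with Benjamini-Hochberg adjustment and a threshold of 0.05. Age was the sole term of 1 fit over all 6 libraries. Standard errors are the log2 fold change divided by the square root of F. TPM was computed from the counts and lengths. GC content and shared stretches of 51 bases came from GENCODE vM21 transcripts, and promoters from RefSeq. The limit of 3 counts covers counting error alone, because amplified copies of a molecule are counted more than once. The fit was tested on simulated data.

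The members and the lists were chosen with earlier results of these data known. The sites of action list also held Rab41, which the table lacks. Rab rows with values in every library were the called ones, up to 6 rows in each direction with the smallest unadjusted p among those under 0.05, the 6 highest in TPM and the paralogs of called genes or of genes with an unadjusted p under 0.05. Rab17, Rab43, Rab24, Ppbp and Rab3ip were added after their values were seen. From each regulator list the called genes were named, or the 2 with the smallest p, except that 1 gene is not reported here. Other settings were 3 scalings (upper-quartile, median-ratio, none), a filter of 5 CPM in 3 libraries, no filter, limma-voom (limma 3.58.1) with or without quality weights, DESeq2 1.42.0, edgeR's newer quasi-likelihood method, each library left out, and aged 2 with young 4 left out. Removal of GC content and length trends (splines with 4 degrees of freedom) was added after seeing the data.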

Additional observations from a re-analysis of the deposited data

How the results depend on the processing

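Rab27b, Rab36, Rab40b, Rab44 and Rab34 kept their direction in every alternative in which they were tested, and Rab34 was not tested at a minimum of 5 CPM. The count of 5 called Rab rows was 12 (11 higher, 1 lower) with limma-voom quality weights, 1 with aged 2 and young 4 both left out, 7 with DESeq2 (Rab19 and Rab20 in addition), 6 with GC content and length trends taken out, and 0 to 4 with a library left out. Calls were lost for Rab34 with limma-voom (adjusted p = 0.0517), for Rab40b without scaling (0.0544) and for Rab44 with GC content and length trends taken out (0.132). The 6 called regulators and effectors became 21 with DESeq2, 37 with quality weights and 0 to 8 with a library left out. The 772 called genes became 443 at a minimum of 5 CPM, 2181 with DESeq2, 4094 with quality weights and 1320 (716 higher, 604 lower) with the trends taken out. With a library left out they ranged from 74 (young 5 out) to 1029 (young 4 out), with 282, 129 and 85 for aged 1, 2 and 3 and 88 for young 6. The cause of each change was not tested.

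The median of all genes was 0.04 and became 0.20 without scaling beyond library size, and the Rab median of 0.06 became 0.24. The Rab median was -0.04 with GC content and length trends taken out and -0.02 without young 4, so the Rab rows as a whole have no direction that held throughout. Uncalled Rab11a, Rab1b, Rab40c and Rab7 changed sign under some settings. Depth limits the 7 untested genes and Rab34 and Rab44, which had fewer than 60 counts in each young library. No paired analysis was possible because the replicate numbers of the aged (1 to 3) and young (4 to 6) samples share none.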
